A study of Mus musculus with 10 samples.

Results

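The 10 genes described here encode ETS transcription factors: Ets1, Ets2, Erg, Fli1, Gabpa, Elk1, Elk3, Elk4, Etv1 and Etv5. They were chosen by family name, though with earlier results of these data known. All 10 were measured, and they were read among 19938 genes tested in the mouse hippocampus. Ets2 and Erg lie in the chromosome 16 segment from Cbr1 to Fam3b that is duplicated in Dp1Rhr mice, formally Dp(16Cbr1-Fam3b)1Rhr, a model used to study Down syndrome, and are present there in 3 copies. The other 8 members keep 2 copies, among them Gabpa and Etv5, which are on chromosome 16 outside the segment.

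RNA came from both hippocampi of male mice aged 16 weeks on the C57BL/6N background given in the labels. The study's methods instead describe backcrossing of the duplication lines to C57BL/6J, and the difference was not resolved here. There were 5 Dp1Rhr mice and 5 wild-type control littermates from the cross of the Dp5Yah and Dp1Rhr lines, with 1 array per mouse. The controls are shared with other comparisons of that cross, and the other genotypes were not analysed here. The duplication is carried in every cell of the animal, and the samples are bulk tissue, so that more cells of a type and more RNA per cell cannot be told apart. The array medians were between 6.77 and 6.83 on the log2 scale, and any pair of arrays correlated at 0.9956 to 0.9981. The 8 hippocampal neuron markers, which include Slc17a7, Snap25 and Prox1, lay between the 73.8th and the 99.98th percentile of mean signal. Their list level ranged from 10.84 to 10.90 in control and from 10.86 to 10.89 in Dp1Rhr.

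ETS factors share a winged helix-turn-helix DNA-binding domain that recognises a GGAA core, and family members differ in the bases preferred around it and in their partners. Erg, Fli1, Ets1 and Ets2 are known from endothelial and blood cells, Elk1, Elk3 and Elk4 are ternary complex factors that bind with SRF at immediate early genes, and Gabpa joins GABPB proteins at promoters of mitochondrial genes. Etv1 and Etv5 belong to the PEA3 group, which acts downstream of FGF and ERK signalling, and ERK phosphorylates several of these factors.

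The promoter windows of the duplicated pair are shown because these are the genes whose dose differs, and that of Elk4 because it was the only member window with the long ETS motif. Windows of 300 bases, from 250 before to 50 after an annotated start, came from RefSeq on GRCm38.p6 and were found for 8 of the 10 members, 14 windows in all. None was found for Ets1 or Fli1. Capitals mark each GGAA core, or TTCC where the core is on the opposite strand. The windows lie at chr16:95702157-95702456 on the plus strand for Ets2, at chr16:95586544-95586843 on the minus strand for the most upstream of 3 Erg starts, and at chr1:132007370-132007669 on the plus strand for Elk4.
Ets2: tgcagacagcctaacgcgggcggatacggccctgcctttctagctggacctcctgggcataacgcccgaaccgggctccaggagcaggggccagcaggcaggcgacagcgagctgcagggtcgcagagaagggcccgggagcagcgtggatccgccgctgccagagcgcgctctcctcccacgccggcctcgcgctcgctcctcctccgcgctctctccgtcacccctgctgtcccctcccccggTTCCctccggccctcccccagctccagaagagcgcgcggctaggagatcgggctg
Erg: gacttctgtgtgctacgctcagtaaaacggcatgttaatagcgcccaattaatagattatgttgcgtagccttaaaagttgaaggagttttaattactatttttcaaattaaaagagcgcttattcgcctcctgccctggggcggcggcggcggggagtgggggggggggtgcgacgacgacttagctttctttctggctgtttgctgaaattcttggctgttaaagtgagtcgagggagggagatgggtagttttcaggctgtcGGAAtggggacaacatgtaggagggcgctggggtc
Elk4: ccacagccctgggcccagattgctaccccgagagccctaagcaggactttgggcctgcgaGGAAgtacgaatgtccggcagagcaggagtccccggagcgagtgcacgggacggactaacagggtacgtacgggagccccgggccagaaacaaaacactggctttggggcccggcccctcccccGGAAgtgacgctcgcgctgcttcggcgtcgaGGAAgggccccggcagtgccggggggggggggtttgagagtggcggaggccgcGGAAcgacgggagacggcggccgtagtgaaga

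The Ets2 window held 1 GGAA core, on the minus strand, in a stretch of 71.7% GC. The Erg window shown also held 1 core, in a stretch of 50.3% GC, and the further Erg windows held 4 and 2. The Elk4 window shown held 4, of which 1 was part of CCGGAAGT, a motif that many ETS factors favour. The further Elk4 windows held 2 and 6 cores. Counting both strands, GGAA was in 96% of all 32851 mouse windows, with a median of 3 per window, and CCGGAAGT, which contains the shorter motif, was in 3.89%. Such matches describe the letters only.

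Of the 10 members, 1 was called higher in Dp1Rhr and 0 lower by limma at an adjusted p of 0.05 over all genes. Among all 19938 genes, 0.627% were called higher and 0.176% lower. Groups did not overlap for 1 of the 10 members, with Dp1Rhr above, against 3.52% of all genes (1.82% with Dp1Rhr above and 1.7% below). FCROS, the rank method of the study, was used in a form written anew here. It called 2 of the 10, Ets2 and Erg, both higher, and 5.39% of all genes, 3.4% higher and 1.99% lower. At an unadjusted p under 0.05, 15% of all genes passed, 8.55% higher and 6.44% lower, and the counts at that threshold given further on are read against these shares. The log2 fold change was above 0 for 6 members and below 0 for 4, and was above 0 in 49.9% of all genes.

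Ets2, an ETS factor activated by ERK signalling, was higher in Dp1Rhr. Its gene spans chr16:95702407-95721049 in GRCm38. The log2 signal in control replicates 1 to 5 was 9.97, 10.13, 10.26, 10.27 and 10.11. In Dp1Rhr replicates 1 to 5 it was 10.49, 10.41, 10.48, 10.53 and 10.58. All 5 Dp1Rhr arrays stood above all 5 control arrays, and control replicate 1 was the lowest. The mean moved from 10.15 ± 0.12 (SD, n = 5) to 10.50 ± 0.06 (SD, n = 5), a log2 fold change of 0.35 ± 0.06 (SE, limma adjusted p = 0.0269). As a ratio this was 1.27, with a 95% confidence interval from 1.17 to 1.38. The upper end lay below 1.5, the ratio of 3 copies to 2. By size of the log2 fold change Ets2 ranked 157th from the top among all genes. With control replicates 1, 3 or 4, or Dp1Rhr replicates 3 or 5, left out the call held, whereas without control replicate 2 the adjusted p was 0.0681, without control replicate 5 0.0673, and without Dp1Rhr replicate 1, 2 or 4 0.0894, 0.0747 and 0.0778. The log2 fold change of Ets2 stayed between 0.30 and 0.38 in those fits.

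**Figure D1:**
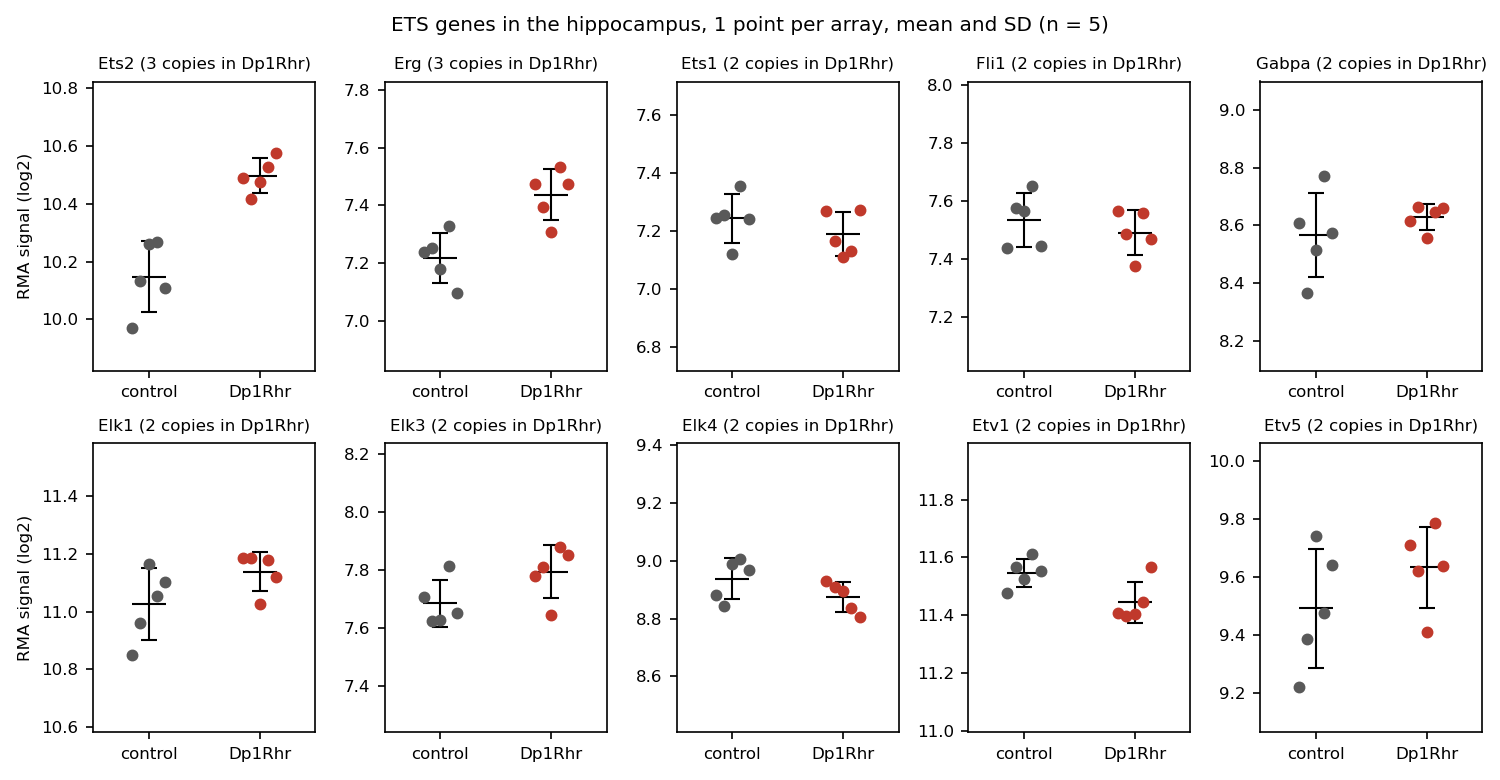
Log2 RMA signal of the 10 ETS genes on each array, with the mean and SD of each group (n = 5), grey for control and red for Dp1Rhr; each panel has its own axis of equal span. The Dp1Rhr arrays stand wholly above control for Ets2, 4 of 5 do so for Erg, and the groups overlap for the other 8 genes.

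Erg, a factor known for its role in endothelial identity, averaged 7.22 ± 0.09 (SD, n = 5) in control mice, and in Dp1Rhr mice 7.44 ± 0.09 (SD, n = 5). The gene spans chr16:95359169-95586600. Control replicates 1 to 5 were at 7.24, 7.25, 7.18, 7.33 and 7.10, and Dp1Rhr replicates 1 to 5 at 7.47, 7.39, 7.31, 7.53 and 7.48. Of the Dp1Rhr arrays, 4 lay above every control array, and replicate 3 fell just under control replicate 4. The log2 fold change was 0.22 ± 0.05 (SE), a ratio of 1.16 with a 95% confidence interval from 1.08 to 1.25, and the adjusted p by limma was 0.0760, so that Erg was not called. Without Dp1Rhr replicate 3 the log2 fold change of Erg was 0.25 and its adjusted p by limma 0.0459. In the other 9 fits with 1 array left out Erg was not called, with an adjusted p by limma of up to 0.195. For Erg, too, the upper end of the interval lay below a ratio of 1.5. Its mean signal was at the 46.7th percentile of all genes. Among the 19 measured genes within 1 Mb of Erg or Ets2, the highest ratio was 1.47, for Psmg1. Why the ratios of Ets2 and Erg lay below 1.5 was not tested.

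A list of 16 endothelial genes bound by ETS factors, such as the receptor genes Tek and Kdr, was read in the same arrays, with 0 of its genes called. Its level was 8.08 to 8.19 in control and 8.17 to 8.31 in Dp1Rhr, and the ranges overlapped through Dp1Rhr replicate 3. The mean of z-scores over the list was between -0.91 and -0.08 in control and between -0.12 and 0.96 in Dp1Rhr, where replicate 3 was the lowest, as it was for Erg. With that score as a covariate the log2 fold change of Erg was 0.05 ± 0.07 (SE, limma adjusted p = 0.979), and that of Ets2 was 0.37 ± 0.10 (SE, limma adjusted p = 0.961). In that fit limma called 0 of all genes, with 1012 at an unadjusted p under 0.05. The part of endothelial content in the Erg difference cannot be told apart from that of the duplication here, since 4 of the 5 Dp1Rhr arrays scored above every control array. The score is made of genes bound by ETS factors, so it need not reflect cell content alone. In the same fit the median log2 fold change of 11 choroid plexus markers was -0.13 in place of 0.88. That of the 8 hippocampal neuron markers was -0.02 in place of 0.01.

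**Figure D2:**
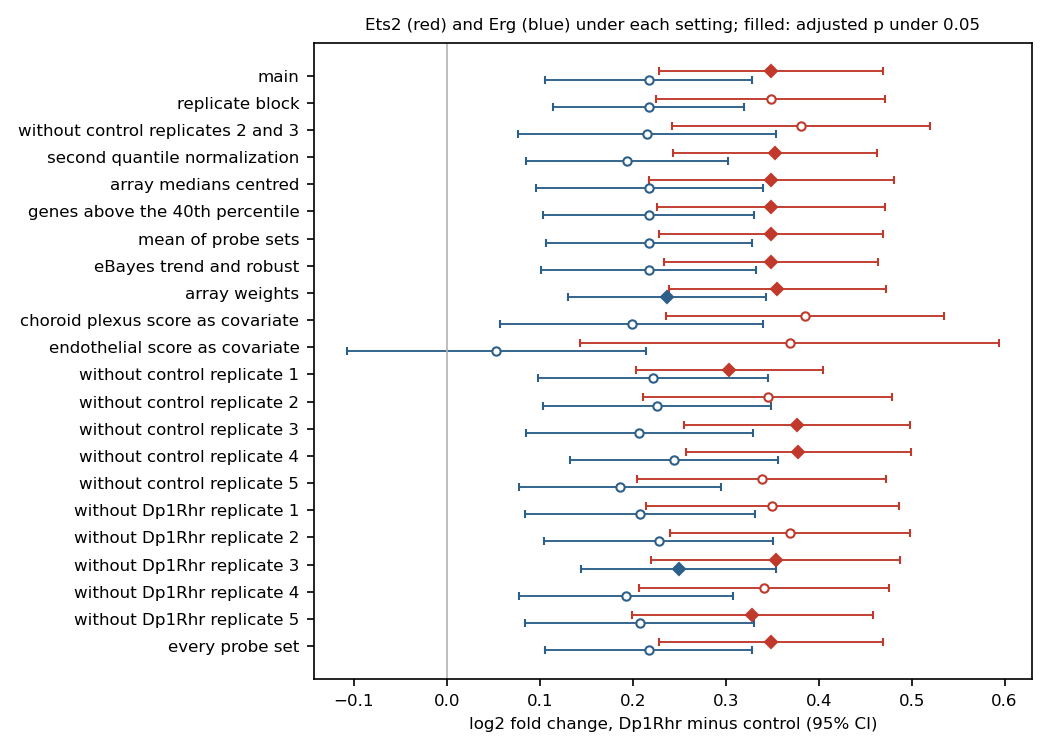
Log2 fold change of Ets2 (red) and Erg (blue), Dp1Rhr minus control, with 95% confidence intervals under each way of fitting; filled symbols have an adjusted p under 0.05 by limma. Ets2 stays between 0.30 and 0.39, whereas Erg lies between 0.19 and 0.25 in all but the fit with the endothelial score, where it is at 0.05.

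Ets1 and Fli1 are neighbours on chromosome 9, 92.8 kb apart, in the way that Erg and Ets2 are neighbours on chromosome 16, 115.8 kb apart, and they are the close relatives of Ets2 and Erg. Ets1, at chr9:32636241-32757820, was at 7.24, 7.26, 7.12, 7.36 and 7.24 in control and 7.27, 7.16, 7.11, 7.13 and 7.27 in Dp1Rhr. Its log2 fold change was -0.05 ± 0.05 (SE, limma adjusted p = 0.682). Fli1, at chr9:32422204-32543432, was at 7.44, 7.57, 7.56, 7.65 and 7.44 in control and 7.57, 7.49, 7.38, 7.56 and 7.47 in Dp1Rhr. Its log2 fold change was -0.04 ± 0.05 (SE, limma adjusted p = 0.768). For both genes the groups overlapped over most of their range.

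The ternary complex factors showed no call. Elk1, at chrX:20933395-20950608, had control values of 10.85, 10.96, 11.17, 11.05 and 11.10 and Dp1Rhr values of 11.18, 11.18, 11.03, 11.18 and 11.12, a log2 fold change of 0.11 ± 0.06 (SE, limma adjusted p = 0.391). Elk3, which can repress its targets and is known from endothelium, lies at chr10:93247415-93311159. Its control values were 7.71, 7.62, 7.63, 7.81 and 7.65 and its Dp1Rhr values 7.78, 7.81, 7.64, 7.88 and 7.85, with a log2 fold change of 0.11 ± 0.05 (SE, limma adjusted p = 0.338). With the endothelial score as a covariate the value for Elk3 was -0.09, the opposite sign. Elk4, at chr1:132007577-132026448, was at 8.88, 8.84, 8.99, 9.01 and 8.97 in control and 8.93, 8.91, 8.89, 8.84 and 8.81 in Dp1Rhr, with a log2 fold change of -0.06 ± 0.04 (SE, limma adjusted p = 0.525). For Elk1 and Elk3 the lowest Dp1Rhr array was below the highest control array. For Elk4 the highest Dp1Rhr array, at 8.93, was above the lowest control array, at 8.84.

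Gabpa, the DNA-binding subunit of GABP, lies at chr16:84834891-84863783, on the chromosome of the duplication but outside it. It was at 8.61, 8.37, 8.51, 8.77 and 8.57 in control and 8.61, 8.66, 8.56, 8.65 and 8.66 in Dp1Rhr. All Dp1Rhr values of Gabpa fell within the control range, and the log2 fold change was 0.06 ± 0.06 (SE, limma adjusted p = 0.723). Its sign depended on control replicates 2 and 3, without which the value for Gabpa was -0.023.

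Etv1 and Etv5 had values of opposite sign, and neither passed the test. Etv1, at chr12:38780082-38870483, was at 11.48, 11.57, 11.52, 11.61 and 11.55 in control and 11.41, 11.40, 11.41, 11.44 and 11.57 in Dp1Rhr. Dp1Rhr replicates 1 to 4 were below every control array and replicate 5 was within the control range. The log2 fold change of Etv1 was -0.10 ± 0.04 (SE, limma adjusted p = 0.243), and a further Etv1 probe set gave -0.11. Etv5, at chr16:22381313-22439570 and outside the duplication, was at 9.22, 9.39, 9.74, 9.48 and 9.64 in control and 9.71, 9.62, 9.41, 9.79 and 9.64 in Dp1Rhr. It had the widest spread of the members among controls, with an SD of 0.21, and a log2 fold change of 0.14 ± 0.09 (SE, limma adjusted p = 0.547). A further Etv5 probe set gave 0.08.

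Over the 8 members at 2 copies, 0 were called, 4 had a log2 fold change above 0 and 4 below, and the median was 0.01, against a median of -0.0001 over all genes. The adjusted p-values ran from 0.243 to 0.768. At an unadjusted p under 0.05, 1 of the 8 members passed (Etv1, lower), near the 15% of all genes, and FCROS called 0 of them. The remaining family members gave a like picture: of 16 listed, 15 were measured and Fev was not analysed here. None of the 15 was called, 0 passed at an unadjusted p under 0.05, FCROS called 0, and the groups overlapped for all 15. Elf1 had the highest log2 fold change among these, at 0.08 ± 0.04 (SE, limma adjusted p = 0.347), and Etv4 the lowest, at -0.09 ± 0.05 (SE, limma adjusted p = 0.404). Spi1, which drives microglia and other myeloid cells, was at 7.57 in control and 7.59 in Dp1Rhr. Etv6 and Erf, both repressors, had log2 fold changes of -0.02 and -0.08, and the other 10 genes of this group lay between -0.06 and 0.03.

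**Figure D3:**
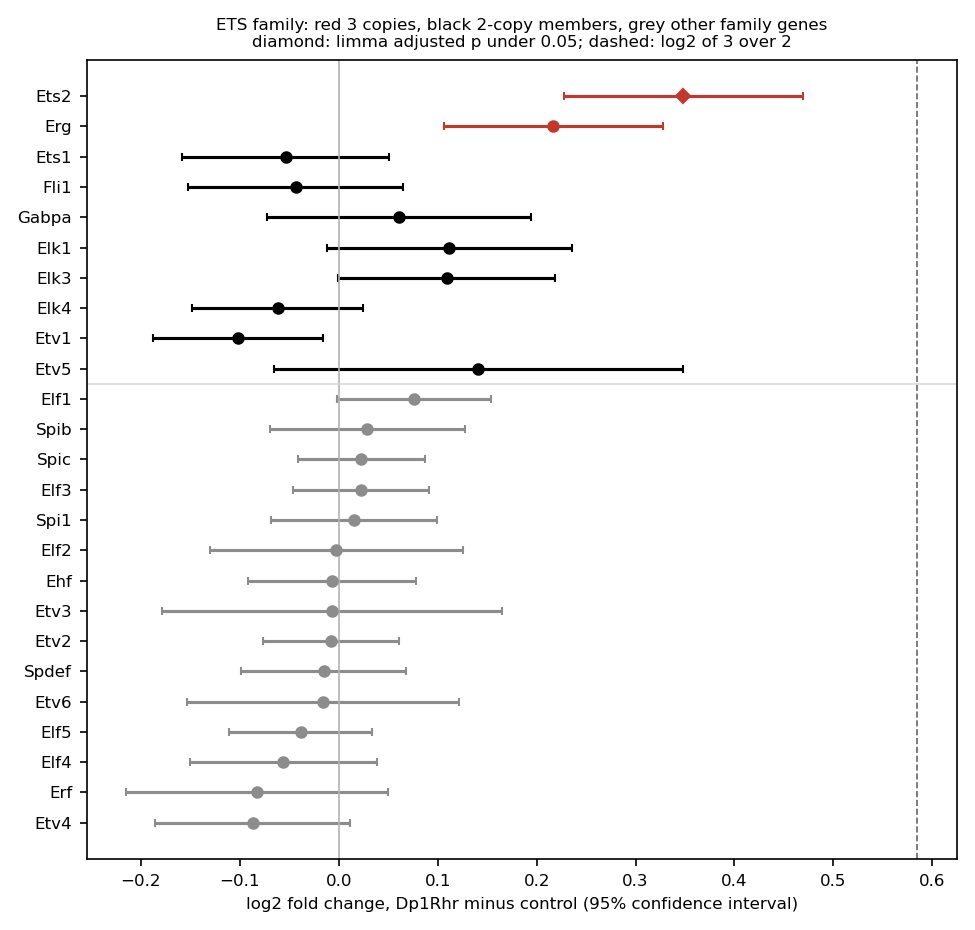
Log2 fold change, Dp1Rhr minus control, with 95% confidence interval for every measured ETS family gene, red for 3 copies, black for 2-copy members and grey for the remaining family; the dashed line marks the log2 of 3 over 2, 0.585. Ets2 is the only call, and the intervals of Ets2 and Erg end below the dashed line.

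The dose contrast within the family was then put directly. For each array the log2 signal of a 2-copy member was subtracted from that of Ets2 or Erg, and the 16 resulting differences were compared between groups by permuting the group labels exactly and two-sided, in all 252 ways, of which the smallest possible p is 0.00794. These differences share genes and arrays and are not independent of the values above. For Ets2 the difference was larger in Dp1Rhr against all 8 members, by 0.21 to 0.45 on the log2 scale, with p under 0.05 for 7, also after Benjamini-Hochberg adjustment over the 16. Against Ets1 it grew by 0.40, against Fli1 by 0.39, against Elk1 by 0.24, against Elk4 by 0.41 and against Etv1 by 0.45, each with the groups apart (exact permutation p = 0.00794, adjusted 0.0141). Against Gabpa and Elk3 it grew by 0.29 and 0.24 with overlapping groups (exact permutation p = 0.0159, adjusted 0.0231). Against Etv5 the value was 0.21, which did not pass (exact permutation p = 0.0714, adjusted 0.0816).

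For Erg, 5 of the 8 differences passed. It gained 0.27 on Ets1, 0.26 on Fli1, 0.28 on Elk4 and 0.32 on Etv1, with the groups apart (exact permutation p = 0.00794, adjusted 0.0141), and 0.11 on Elk3 (exact permutation p = 0.0238, adjusted 0.0317). The value for Erg was 0.16 against Gabpa (exact permutation p = 0.0714), 0.11 against Elk1 (exact permutation p = 0.317) and 0.08 against Etv5 (exact permutation p = 0.484), which did not pass. Ets1, Fli1, Elk4 and Etv1 were the members for which the groups were apart against both 3-copy genes.

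**Figure D4:**
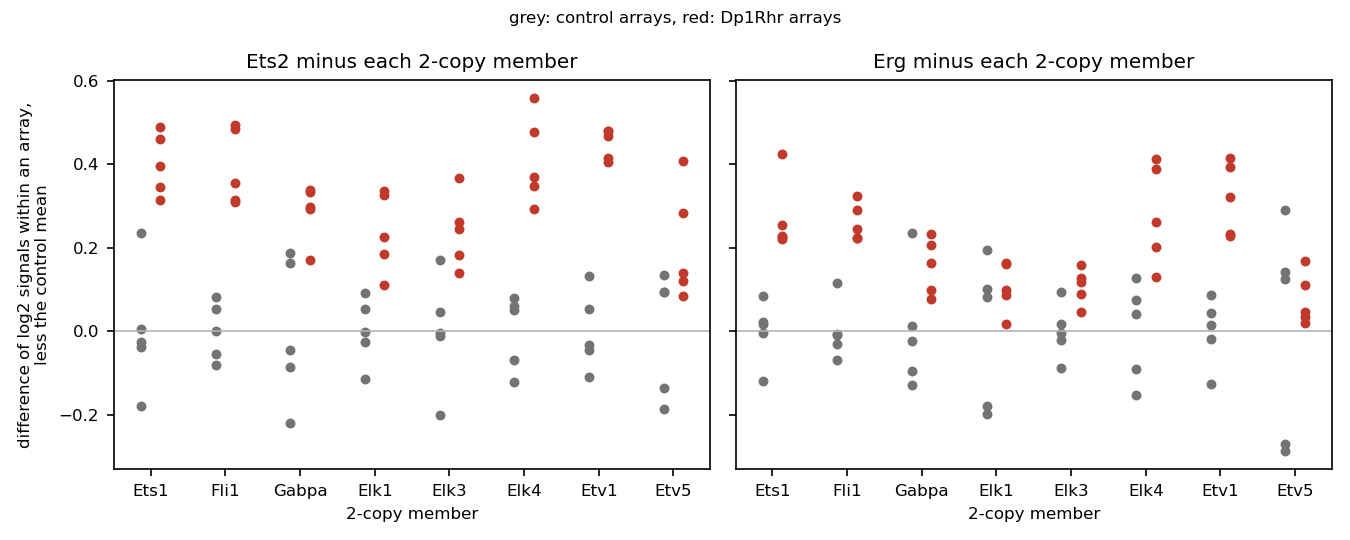
Difference of log2 signals within an array, Ets2 (left) or Erg (right) minus each 2-copy member, less its control mean, with grey points for control arrays and red for Dp1Rhr arrays. The groups are apart in 5 of the 8 differences for Ets2 and in 4 of the 8 for Erg.

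The duplicated pair was also set beside its neighbours. Within 1 Mb of Erg or Ets2, 17 other genes were measured, all in the duplicated segment. Of these, 9 were called higher and 0 lower, against 0.627% and 0.176% of all genes. Their median log2 fold change was 0.27. Ets2 ranked 6th and Erg 11th of these 19 genes. Get1, a subunit of the receptor for tail-anchored proteins, rose by 0.50 ± 0.04 (SE, limma adjusted p = 0.00115) and Psmg1, a proteasome assembly chaperone, by 0.56 ± 0.10 (SE, limma adjusted p = 0.0337). Brwd1, a bromodomain protein, and B3galt5, a galactosyltransferase, rose by 0.35 each, and Dyrk1a, a kinase, by 0.27. Vps26c rose by 0.51, Pigp by 0.33, Dscam by 0.32 and Ttc3 by 0.28, and all of them were called. Kcnj15, a potassium channel gene next to Erg, was at 0.01 ± 0.03 (SE, limma adjusted p = 0.918), and Itgb2l at -0.03 (adjusted p = 0.798). Both were dim, at the 27.6th and the 35.1st percentile of mean signal. Lca5l, Sh3bgr and Igsf5, also not called, lay between the 16.4th and the 35.0th percentile. These dim genes are counted in the median and in the ranks above. Kcnj6, Hmgn1 and Pcp4, like Erg, had positive values of 0.21, 0.17 and 0.13 that were not called, although their groups did not overlap. For Kcnj6, Hmgn1 and Pcp4 the adjusted p by limma was 0.0708, 0.114 and 0.0843.

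**Figure D5:**
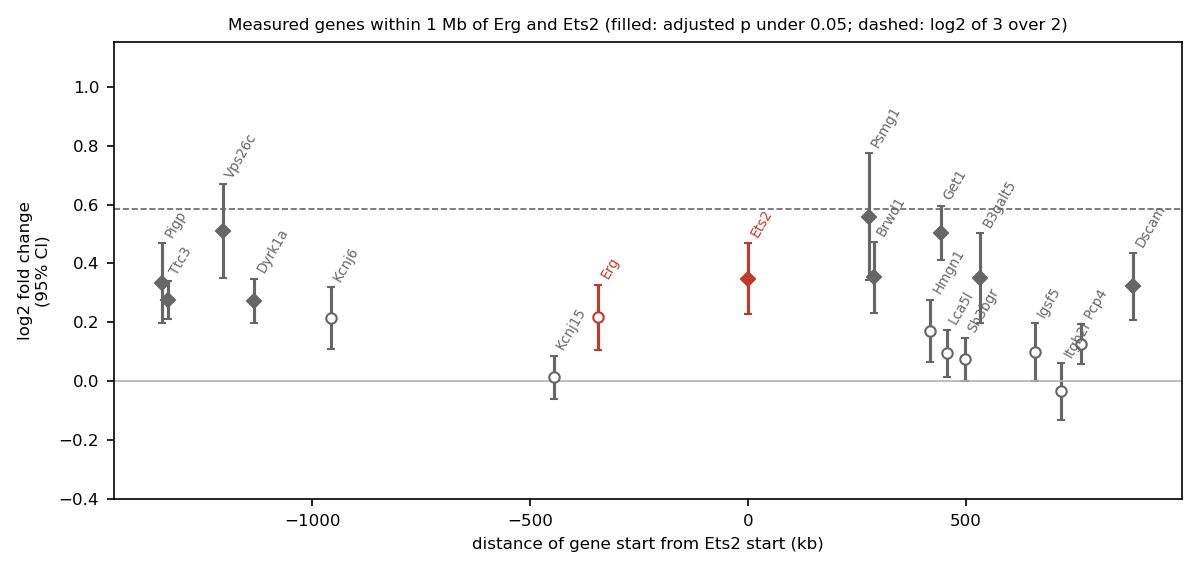
Log2 fold change, Dp1Rhr minus control, with 95% confidence interval for the 19 measured genes within 1 Mb of Erg or Ets2, by distance of the gene start from that of Ets2 in kb; filled diamonds were called by limma at an adjusted p of 0.05, and the dashed line marks 0.585. Ets2 and Erg, in red, lie among neighbours that range from -0.03 to 0.56.

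The partners and known targets of the members were read as lists. Of the 15 partners and regulators analysed, 0 were called, 3 had a log2 fold change above 0 and 12 below, and the median was -0.06. The 2 with the smallest p were the histone acetyltransferases Crebbp, from 11.35 ± 0.04 (SD, n = 5) to 11.19 ± 0.05 (SD, n = 5), and Ep300, from 10.51 ± 0.05 (SD, n = 5) to 10.35 ± 0.06 (SD, n = 5). Both had Dp1Rhr arrays entirely below control, with log2 fold changes of -0.16 (adjusted p = 0.0617 by limma for Crebbp and 0.0760 for Ep300). Srf, the partner of the Elk factors, was at -0.09 (adjusted p = 0.563), and Gabpb1, the partner of Gabpa, at 0.01 (adjusted p = 0.976). In this list 4 genes passed at an unadjusted p under 0.05, all lower, against 6.44% of all genes, and FCROS called 3 lower, against 1.99%.

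Among the 9 immediate early targets of SRF and the Elk factors, 1 was called lower and 0 higher. All 9 log2 fold changes were below 0, with a median of -0.43, 6 at an unadjusted p under 0.05 against 6.44% of all genes lower, and FCROS called 6 lower against 1.99%. Junb, an AP-1 subunit, fell from 7.87 ± 0.09 (SD, n = 5) to 7.56 ± 0.08 (SD, n = 5), a log2 fold change of -0.32 ± 0.05 (SE, limma adjusted p = 0.0269), with control arrays between 7.75 and 7.96 and Dp1Rhr arrays between 7.50 and 7.69. Arc, a synaptic activity gene, was at a log2 fold change of -0.77 ± 0.21 (SE, limma adjusted p = 0.102), and its control arrays ranged from 9.72 to 11.13. The level of this list was 8.38, 8.86, 9.17, 8.47 and 8.59 in control replicates 1 to 5 and between 8.23 and 8.33 in Dp1Rhr, and control replicates 2 and 3 were the highest. Without control replicates 2 and 3 the median of the list was -0.20, with Arc at -0.44 (adjusted p = 0.166) and Fos at -0.30 (adjusted p = 0.128), and the log2 fold change of Junb was -0.27 (adjusted p = 0.109). With the choroid plexus score as a covariate Junb was at -0.24 (adjusted p = 0.113), and with the endothelial score at -0.12 (adjusted p = 0.970). The call of Junb was also lost without control replicate 2 (adjusted p = 0.0681), control replicate 3 (0.0501), control replicate 5 (0.0673), or Dp1Rhr replicate 1 (0.0851), 2 (0.0909) or 4 (0.0764).

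Control replicates 2 and 3 were also the lowest for choroid plexus markers, whose list level over 11 genes was 7.04 and 7.25 there, 8.40 to 9.05 in the other controls and 8.55 to 9.45 in Dp1Rhr. All 11 had a log2 fold change above 0, with a median of 0.88, and 0 were called by limma. At an unadjusted p under 0.05, 8 were higher, against 8.55% of all genes, and FCROS called 10 higher, against 3.4%. Without control replicates 2 and 3 the median was 0.26. Without both arrays Ets2 had a log2 fold change of 0.38 (adjusted p = 0.0891 by limma) and Erg one of 0.22 (adjusted p = 0.194). With the choroid plexus score as a covariate the values were 0.39 for Ets2 (adjusted p = 0.0807) and 0.20 for Erg (adjusted p = 0.243). The part of choroid plexus content in these differences was not tested beyond these fits.

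Of the 9 ERK response genes expressed with Etv5, 0 were called, with a median log2 fold change of -0.11. Dusp6, an ERK phosphatase, was at -0.32 ± 0.07 (SE, limma adjusted p = 0.0638) and Spred1, an inhibitor of the same pathway, at -0.21 ± 0.05 (SE, limma adjusted p = 0.0859). At an unadjusted p under 0.05, 3 of these genes were lower, against 6.44% of all genes, and 1 was higher, against 8.55%. FCROS called 2 of them lower, against 1.99%. Of the 16 endothelial genes bound by ETS factors 0 were called, 15 were above 0 and 1 below, the median was 0.12, 11 were higher at an unadjusted p under 0.05, against 8.55% of all genes, and FCROS called 4 higher, against 3.4%. Sox18, a vascular transcription factor, was at 0.21 ± 0.06 (SE, limma adjusted p = 0.108) and Tek, the angiopoietin receptor, at 0.25 ± 0.07 (SE, limma adjusted p = 0.114), while Cdh5, a cadherin of endothelial junctions, was at 0.02. The mural cell markers, which share the vessel wall, had a median of 0.02 over 7 genes. Of 8 mitochondrial genes bound by GABPA 7 were measured and 0 called, with a median of -0.02. At an unadjusted p under 0.05, 2 were higher, against 8.55% of all genes, and FCROS called 1 higher, against 3.4%. The 2 with the smallest p were Tfb1m, a mitochondrial rRNA methyltransferase, at 0.24 ± 0.05 (SE, limma adjusted p = 0.0571), and Cox5b, a respiratory chain subunit, at 0.12 ± 0.04 (SE, limma adjusted p = 0.202).

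The markers of microglia, T lymphocytes, astrocytes, interneurons and the oligodendrocyte lineage had 0 calls by limma. At an unadjusted p under 0.05, 8.55% of all genes were higher and 6.44% lower. At that threshold 2 microglia markers, 1 interneuron marker, 4 oligodendrocyte lineage genes and 2 astrocyte markers were higher and 1 astrocyte marker was lower. FCROS called 3 oligodendrocyte lineage genes higher, against 3.4% of all genes, and 1 astrocyte marker lower, against 1.99%. The median log2 fold change was 0.08 for 7 microglia markers, 0.05 for 5 T lymphocyte markers, 0.05 for 6 astrocyte markers, 0.06 for 6 interneuron markers and 0.09 for 7 genes of the oligodendrocyte lineage. The T lymphocyte markers lay between the 14.4th and the 40.4th percentile of mean signal, the dim end of the array. Of 4 blood markers only Alas2, a haem synthesis enzyme, was measured, and it rose by 0.67 (adjusted p = 0.0304 by limma).

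How the members varied from mouse to mouse was described by Pearson's correlation over the 10 arrays after each gene was centred on its group mean. Elk1 and Etv5 were the closest pair of members, at 0.95. Erg went with Elk3 at 0.80 and with Fli1 at 0.77, and Elk3 with Gabpa at 0.77. Ets2 went with Etv1 at 0.67 and with Erg, its neighbour in the genome, at 0.31. Across the 16 endothelial genes the median correlation was 0.38 for Erg, 0.46 for Elk3 and -0.18 for Ets2. Among all genes above the 40th percentile of signal, those nearest to Ets2 were Adra2c at 0.93, Rgl1 at 0.91, Ccdc6 at 0.91, Arhgef18 at 0.90 and Ell2 at 0.90. Those nearest to Erg were Sh3bgrl2 at 0.94, Chtop at 0.93, Hint1 at 0.91, Timp2 at 0.90 and Myl12b at 0.90. These points share tissue dissection and array normalization, and no test was made of them. The nearest genes are the highest picked from a large number of genes over 10 arrays, so that high values follow in part from the picking.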

How the data were processed

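Per the labels, total RNA of both hippocampi was biotin-labelled for Affymetrix Mouse Gene 1.0 ST arrays. The authors processed the scans with RMA (background correction, quantile normalization and summary by probe set) and deposited log2 values. limma and mm10 are named in the submitters' processing notes, the former without a version. Quantile normalization hides a shift of all genes at once. The number of arrays limits the precision.

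The platform annotation gave a single symbol to 21789 of 35556 probe sets, several symbols to 1621 and did not list 12146. Where a gene had several such probe sets (999 genes), that with the highest mean signal stood for it, leaving 19938 genes. Positions are those of RefSeq on GRCm38, matched through Entrez identifiers for 21698 probe sets. Protein sequences were not used here.

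The groups were compared with limma 3.58.1 in R 4.3.3 (lmFit, eBayes, two-sided, Benjamini-Hochberg over all genes, adjusted p 0.05), after a test on simulated data. FCROS, the study's method, was an alternative, in a form written anew here, so that its calls need not be those of the study. Other alternatives were a replicate block, left-out arrays, renewed quantile normalization, median centring, a signal filter, other probe set rules, array weights, marker scores as covariates, and eBayes with trend and robust. Same-numbered arrays did not deviate together (correlations -0.34 to 0.12), so the numbers were not taken as pairs. A list level is the mean log2 signal of its genes on an array. Named genes were all members, the measured family, genes within 1 Mb, the 2 members of each list with the smallest p or called, the 5 nearest by correlation, and some (Srf, Gabpb1, Cdh5, Kdr) as examples chosen after their values were seen. The members and lists were chosen with earlier results of these data known.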

Additional observations from a re-analysis of the deposited data

Results flagged for a closer look

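Single arrays that stood far from the rest of their group were looked for among 62 genes, in 124 groups of 5 arrays. There were 7 such values, and chance gives 1 in 20 groups, 6.2 here. Among the members there was 1: Etv1 on Dp1Rhr replicate 5 was at 11.57, with the other Dp1Rhr arrays at 11.40 to 11.44. In the wider family, Erf on Dp1Rhr replicate 4 was at 8.35, with the others at 8.60 to 8.65. Among the listed genes, Dusp6 on control replicate 3 was at 10.29 against 9.93 to 9.97, Cd4 on Dp1Rhr replicate 4 at 5.93 against 5.83 to 5.83, and Gja1 on Dp1Rhr replicate 3 at 11.02 against 11.14 to 11.18. Timp2, one of the genes nearest to Erg in its pattern, stood apart on control replicate 5, at 10.79 against 10.97 to 11.02, and on Dp1Rhr replicate 3, at 10.86 against 11.03 to 11.10. These are the lowest arrays of their groups for Erg as well, and Timp2 was picked for its likeness to Erg over the same arrays.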

How the results depend on the processing

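The count of 1 called member became 0 with control replicates 2 and 3 left out and with the choroid plexus or the endothelial score as a covariate, 2 with array weights (Ets2 and Erg) and 2 by FCROS, which calls 5.39% of all genes, and 0 to 2 with 1 array left out. With the replicate number as a block the count was 0, and the adjusted p of Ets2 was 0.107 by limma. The block left 4 calls among all genes in place of 160. The count for partners, regulators and targets, 1 in the reported fit, was 0 with the block, without control replicates 2 and 3 and with either score, 3 with quantile normalization repeated, with only genes above the 40th percentile of signal and with trend and robust, 4 with array weights, 16 by FCROS, and 0 to 5 with 1 array left out. The 16 within-array differences were repeated only with quantile normalization renewed, with the mean of probe sets and with arrays left out. Of them, 12 to 13 had an exact permutation p under 0.05 in these alternatives. After Benjamini-Hochberg adjustment over the 16 the count was 10 to 13, lowest without Dp1Rhr replicate 1 or 3. The block, the array weights and the marker scores were not applied to these differences. The other family genes had 0 calls throughout the 22 alternatives. Gabpa changed sign without control replicates 2 and 3 (-0.023), with the choroid plexus score (-0.050) and with the endothelial score (-0.15), and Elk3 with the endothelial score (-0.093). The log2 fold change of Ets2 stayed between 0.30 and 0.39. Erg, at 0.05 with the endothelial score, was otherwise at 0.19 to 0.25 and was called without Dp1Rhr replicate 3, with array weights and by FCROS. The causes were not tested. Over all genes the calls were 5 without control replicates 2 and 3, 6 higher and 1 lower with the choroid plexus score, 0 with the endothelial score, 213 higher and 67 lower with array weights, and 678 and 397 by FCROS; centring on the array median gave 107 higher and 17 lower.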
